A study of Drosophila melanogaster with 399 samples.

Results

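Antisense RNAs are transcribed from the strand opposite a gene, so that their exons overlap those of the partner gene in the other orientation. They can pair with the sense transcript, or their transcription can affect the partner's promoter, and for most of those annotated in Drosophila no function is known. Reads of an antisense RNA and of its partner can be told apart only where the library preserves the strand and the counting uses it.

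The annotation used for the counts lists 500 genes whose symbol begins with asRNA:. Of these, 138 reached at least 1 CPM (the count scaled by the library's total of gene counts, the usual depth-scaled unit) in at least 20 of 399 libraries, and they are described here as the expressed antisense RNAs. The members were thus chosen by their CPM in these same libraries, and their levels are a description with no test. The same rule was met by 10948 of 17612 symbols and by 219 of 1938 symbols of the lncRNA: class. At the edge of the rule, CR45818, CR44065 and CR46140 reached 1 CPM in 21 libraries each and CR44155 in 22, whereas CR46453 reached it in 19, CR44049 in 18, and CR45140 and CR45620 in 17 each.

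The libraries were made from polyA RNA of whole Drosophila melanogaster embryos. In the RNAi crosses, males homozygous for a hairpin (shRNA, Valium20 vector, 1 line per TF) against 1 of 45 transcription factors (TFs) were mated to females with 2 homozygous da-Gal4 driver insertions, so every embryo had 2 driver copies and 1 hairpin copy. The driver is ubiquitous and is also expressed in the mother, and the crosses were kept at 27 °C. The control crosses carried a hairpin against mCherry, which flies lack, in 19 of 21 control sets. The control of E5 has the label da-Gal4, and the control of twi has the label MTD-Gal4. Embryos were collected at 0–1.5 h, in a 2 h window set for each TF, and at 16–18 h after egg laying, with 271 RNAi and 128 control libraries, usually 2 per cross and window. An RNAi cross differs from its mCherry control in the hairpin and in the paternal stock together, and the effects of the hairpin and of the paternal stock cannot be told apart. By the labels of their controls, the E5 and twi comparisons can also differ in the presence of a hairpin or in the driver. Those effects cannot be told apart either.

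Gene counts per library ranged between 1.31e+07 and 1.67e+08 (median 5.48e+07), so that 1 count was worth between 0.00597 and 0.0761 CPM. The members together took 0.0111% to 0.0512% of the gene counts, and between 22 and 96 of them (median 49) were at 1 CPM or more in a library. In 72 of 92 comparisons after 1.5 h every RNAi library had less of the targeted TF than every control library, and in 3 every RNAi library had more. Camta RNAi at 12–14 h, among the 72, had 1 library. Markers followed the labelled age: the summed level of 5 muscle genes (Mhc, Mlc2, Tm2, up, wupA) had medians of 23635 CPM in RNAi and 24452 CPM in control libraries at 16–18 h, against 99.7 CPM in RNAi and 135 CPM in control libraries at 0–1.5 h. Follicle cell and fat body genes summed to at most 3.21 CPM in libraries of these 2 windows, and testis genes to at most 0.121 CPM.

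Some libraries stood apart. Each library was correlated, over 9764 genes, with the control libraries of every window, and 379 of 399 were nearest to their own window and 16 to a neighbouring window. The other 4 were further away. Replicate 1 of Bdp1 RNAi labelled 0–1.5 h had r = 0.986 with 6–8 h controls and r = 0.815 with 0–1.5 h controls. Both caup RNAi libraries of 10–12 h were nearest to 2–4 h controls (r = 0.835 and 0.839, against 0.788 and 0.713 with their own window), and replicate 2 of caup RNAi at 16–18 h was nearest to 6–8 h controls (r = 0.768, against 0.686 with its own window). At 2–4 h, where only 2 control sets were collected, replicate 1 of the mCherry set was nearer to 0–1.5 h (r = 0.979) than to its own window (r = 0.931).

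Libraries also differed in how many antisense counts they held. An index was formed from 126 antisense RNAs that are not members and whose exons lie at least 80% within exons of the other strand, as their summed counts divided by those of their 126 sense genes. Its median was 0.114%, and it ranged between 0.0234% and 1.33%. It exceeded 0.3% in 41 libraries of 15 crosses, among them all 6 of su(Hw) RNAi (0.550% to 1.24%), 5 of CG15696 RNAi, 5 of the control set of pb, HLH54F and Kah, and 5 of the control set of Ets65A and CG32006. Across the 399 libraries, the index had a Spearman correlation of 0.80 with the number of members at 1 CPM or more and of 0.77 with the share of reads outside genes, and of −0.02 with the gene counts. Whether reads assigned to the wrong strand contribute to it was not tested, and index values stand beside the results that move with it.

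The partner of every one of the 138 members is a protein-coding gene. A median of 72.3% of a member's exon bases lies opposite exons of other genes, 106 members have 1 opposite gene, and 54 of 138 have a single exon. In 4 members every exon base is opposite another gene's exon: CR44910 (partner CG9246), CR43425 (unc-13), CR43465 (Ucp4B, a mitochondrial carrier) and CR45865 (CG4101). These 4 still received 40142, 15193, 10862 and 10463 counts over all libraries, which counting without strand would have left unassigned. No member lies opposite 1 of the 45 targeted TFs or a Hox gene.

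Most members were low. Their mean over all libraries had a median of 0.853 CPM, with 0.149 CPM for the lowest and 13.3 CPM for the highest, and 53 of 138 averaged 1 CPM or more. The 10 highest held 36.4% of the summed member level. CR45126 (13.3 CPM, chromosome 4, 459768 to 461413, plus strand, Release 6) lies opposite bip2, a subunit of the general transcription factor TFIID. CR42860 (11.2 CPM, 3L) lies opposite sls, the titin-like spring of muscle, CR45600 (8.85 CPM, 3R, 15136985 to 15140121, minus strand) opposite CG3984, and CR42254 (8.20 CPM) opposite BEAF-32, a boundary element protein. Only CR42254 reached 1 CPM in all 399 libraries. The others were CR45171 (7.61 CPM, opposite the cuticle protein gene Cpr67Fb), CR44690 (6.84 CPM, the cytochrome P450 Cyp4d2), CR44030 (4.96 CPM, the Ski/Sno family gene fuss), CR44599 (4.82 CPM, loqs, a partner of Dicer-1), CR45185 (4.74 CPM, the chitinase Cht6) and CR43257 (4.63 CPM, ETH, which encodes the ecdysis triggering hormone). Per kilobase of exon, CR45126 remained the highest at 8.85 CPM per kb and CR44599 came next at 8.28 CPM per kb. A member's level per kb was a median of 3.36% of its partner's, and it was under 10% for 97 members and above the partner's for 12.

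The time course in controls asks when the antisense RNAs appear and disappear in embryos whose TFs were not targeted. The 10 highest differed in their course. CR44599, CR42254, CR45126 and CR43257 had their highest median in the earliest embryos, where RNA is mostly maternal. The median of CR44599 over control sets was 12.6 CPM at 0–1.5 h, 5.58 CPM at 2–4 h, 0.483 CPM at 6–8 h and 0.195 CPM at 16–18 h. That of CR42254 declined more slowly, with 13.2, 12.5, 9.48, 7.49, 5.63, 3.80, 2.87 and 2.72 CPM in the 8 windows in order of age. CR42860 and CR45600 accumulated with age: CR42860 had medians of 0.271 CPM at 0–1.5 h, 4.75 CPM at 6–8 h, 14.5 CPM at 10–12 h and 31.7 CPM at 14–16 h, and CR45600 had 0.452, 8.26, 13.6 and 19.9 CPM in the same windows. CR45185 was transient, with 1.63 CPM at 6–8 h, 10.4 CPM at 10–12 h, 22.0 CPM at 12–14 h, 4.99 CPM at 14–16 h and 4.20 CPM at 16–18 h, and CR44690 was highest at 2–4 h (18.0 CPM, against 4.70 CPM at 0–1.5 h). CR45171 had medians of 10.2 CPM at 0–1.5 h, 12.6 CPM at 2–4 h and 4.38 CPM at 16–18 h. CR44030 stayed between 3.52 and 6.96 CPM in all windows.

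**Figure D1:**
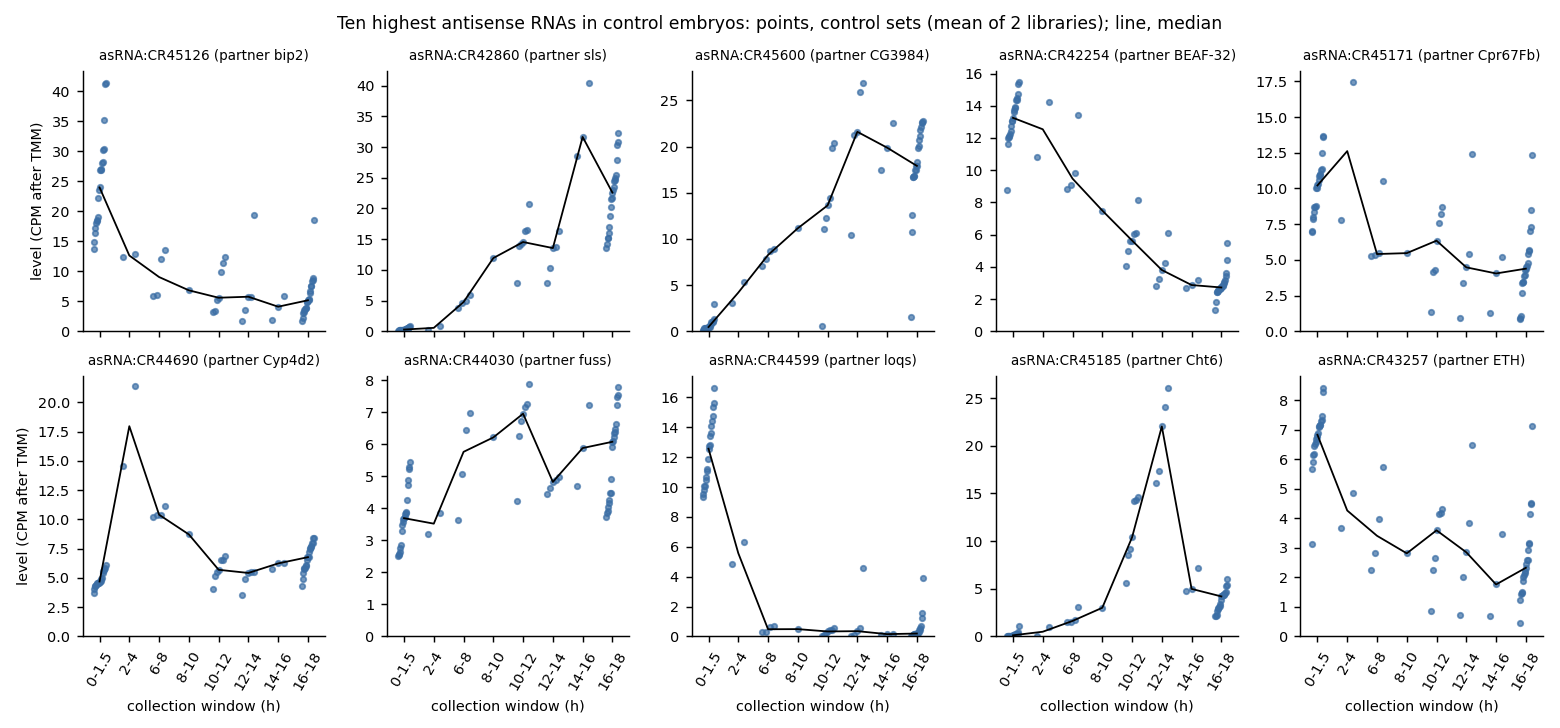
Level of the 10 highest expressed antisense RNAs (CPM after TMM scaling, y axis from 0) in control embryos by collection window; each point is a control set (mean of 2 libraries) and the line joins the medians. CR44599 fell to a median of 0.195 CPM at 16–18 h, against 12.6 CPM at 0–1.5 h, CR42860 and CR45600 were highest late, and CR45185 had its highest median of 22.0 CPM at 12–14 h.

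Between the ends of embryogenesis, counts summed per control set were compared with edgeR's quasi-likelihood test over 13773 genes, and calls required an adjusted p no greater than 0.1 together with a log2 fold change of 1 or more in size. At 16–18 h against 0–1.5 h, 60 of the 138 members were higher and 37 lower. Of all genes tested, 48.8% were higher and 24.3% lower. RLE scaling moved the median of all genes by 0.35 on the log2 scale and gave 69 higher and 31 lower.

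The largest increase was that of CR45376, opposite Swim. It had 3.30, 7.26 and 12.5 CPM (lowest, median and highest set) at 16–18 h, against 0, 0 and 0.0652 CPM at 0–1.5 h, a log2 fold change of 10.07 ± 0.43 (SE, 21 sets each, edgeR adjusted p = 1.3e-30). It was still low at 12–14 h, with 0.366 CPM as the median. CR44192, opposite Npc2e of the sterol-binding Npc2 family, had a median of 4.42 CPM at 16–18 h and 0.0142 CPM at 0–1.5 h. CR45161 (1.09 and 0 CPM) lies opposite fln, which encodes the muscle protein flightin, and its partner rose as well, with a log2 fold change of 3.50. CR45951 (2.28 and 0.0193 CPM) lies opposite park, the fly parkin gene, whose own log2 fold change of −0.77 was below the size set for a call.

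CR42871, opposite CG6661, was among the members that fell most. It had 0.0145, 0.0717 and 0.469 CPM at 16–18 h, against 1.70, 2.24 and 3.19 CPM at 0–1.5 h, a log2 fold change of −4.47 ± 0.30 (SE, 21 sets each, edgeR adjusted p = 4.1e-21). CR44793, opposite the condensin gene Cap-D3, had a median of 0.0413 CPM at 16–18 h and 1.10 CPM at 0–1.5 h, and CR44599 fell by 4.41 on the log2 scale. The partner of CR44599, loqs, had a log2 fold change of −0.28 and was not called. The sets of CR42871, CR44793 and CR44599 did not overlap between the windows, which was a condition for naming them here and is no separate result.

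The zygotic genome is activated between the first 2 windows. Of the 138 members, 47 were higher and 6 lower at 2–4 h than at 0–1.5 h, beside 30.3% higher and 11.0% lower among all genes. CR43864, opposite CG32801, had 6.67 and 18.3 CPM in the 2 sets at 2–4 h, against 0.142 to 0.602 CPM in the 21 sets at 0–1.5 h. CR46452, opposite mino, a glycerol-3-phosphate acyltransferase gene, had 3.98 and 15.4 CPM at 2–4 h, against 0.0202 to 1.49 CPM at 0–1.5 h. It was at 0.107 CPM or less in the 4 sets at 6–8 h and had a median of 0.976 CPM at 14–16 h. Its partner mino was called lower in both steps. CR43470, opposite CG14830, also appeared at 2–4 h (5.90 and 14.5 CPM, against 0.200 to 0.847 CPM). Without the MTD-Gal4 set, which leaves 1 set at 2–4 h, fewer members were called in either direction. The shares of all genes given here are from the fit with both sets. Without replicate 1 of the mCherry set at 2–4 h, 194 calls were made over the 5 steps between successive windows, against 189 with it.

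At 6–8 h against 2–4 h, 22 members were higher and 23 lower (all genes 22.0% and 12.3%), and fewer in either direction without the MTD-Gal4 set. CR46452 and CR44599 were among those that fell. CR45129, opposite Dscam1, a neuronal cell-recognition gene, had 2.64 to 3.76 CPM at 6–8 h, against 0.0977 and 0.376 CPM at 2–4 h. CR45214, opposite the kinase gene RIOK2, received no count at 2–4 h, but its level at 6–8 h rested on 1 of 4 sets, the control of CG33557 and dmrt99B (0.859 CPM), and the other 3 had 0.0159, 0.0168 and 0.0321 CPM.

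At 10–12 h against 6–8 h, 25 were higher and 23 lower (all genes 26.9% and 9.55%). CR43864 and CR43470 fell, to medians of 0.401 and 1.15 CPM at 10–12 h. At 6–8 h CR43864 had a median of 3.31 CPM, and the lowest set of CR43470 was at 7.83 CPM. CR45281, opposite the alkaline phosphatase gene Alp6, and CR44429, opposite the juvenile hormone receptor gene gce, were higher, with 2.02 and 1.27 CPM at 10–12 h, against 0.225 and 0.204 CPM at 6–8 h. At 12–14 h against 10–12 h, 11 were higher and 7 lower (all genes 16.8% and 5.34%), and 15 and 4 under RLE scaling. At 16–18 h against 12–14 h, 8 were higher and 17 lower (all genes 14.1% and 11.3%), and 9 and 11 under RLE scaling, which moved the median of all genes by 0.14. CR45185 and its partner Cht6 fell together in this last step, by 2.53 and 2.16 on the log2 scale.

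**Figure D2:**
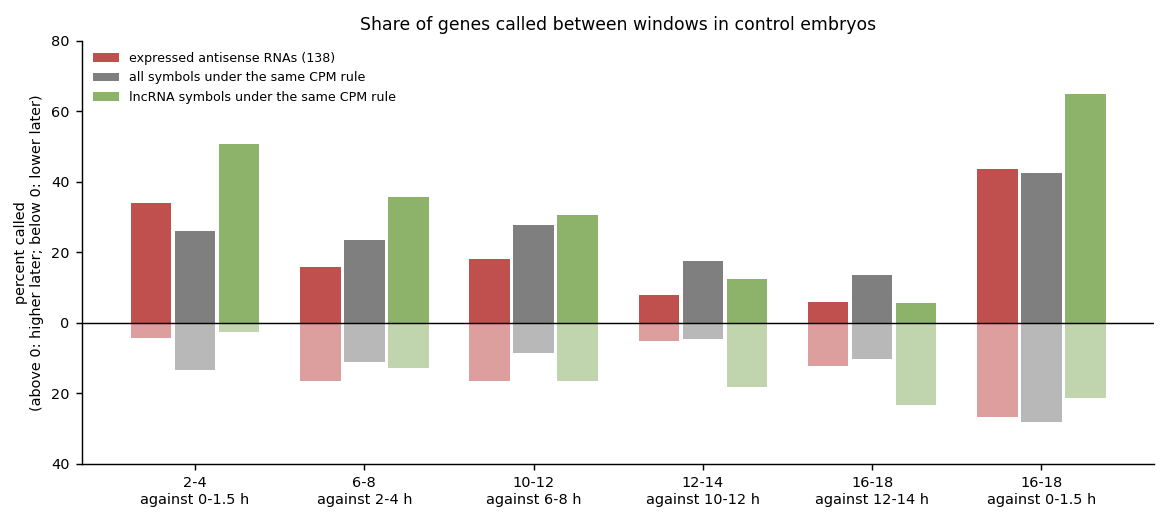
Percent of genes called higher (bars above 0) or lower (bars below 0) in the later of 2 windows in control embryos, for the 138 expressed antisense RNAs, for all symbols and for lncRNA symbols under the same CPM rule. At 2–4 h against 0–1.5 h, 47 members were higher and 6 lower, whereas at 16–18 h against 12–14 h, 8 were higher and 17 lower.

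Members called in none of the 6 contrasts included CR44030, CR31144 (opposite the ribosomal protein gene RpL3), CR44910, CR45798 (opposite Rab1, a GTPase of transport between the ER and the Golgi) and CR45871 (opposite Mcm7, a subunit of the replicative helicase).

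Members and their partners did not move in 1 fixed relation. Across the 201 groups of libraries (mean per cross and window), Pearson's r between a member and its partner had a median of 0.33, with −0.85 for the lowest (CR44807 and CG4797) and 0.97 for the highest (CR42860 and sls). It was above 0.5 for 52 members and below −0.5 for 17, and CR45185 with Cht6 (0.95) and CR44429 with gce (0.94) were also among the highest. The groups share control sets and differ in age, so these values are a description. At 16–18 h against 0–1.5 h, the partner of the 60 members that rose was called higher for 35, lower for 6 and not called for 19. The partner of the 37 that fell was lower for 20, higher for 10, not called for 6 and not tested for 1.

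The next question was how much members vary among crosses of 1 age. An F test of any difference among the 66 crosses (edgeR quasi-likelihood, adjusted p of at most 0.1) called 119 of 137 members tested at 16–18 h (all genes 89.5%) and 81 of 136 at 0–1.5 h (all genes 65.0%). Among the 21 control crosses alone, 78 of 133 were called at 16–18 h (all genes 76.6%) and 50 of 124 at 0–1.5 h (all genes 56.9%). Without the 4 libraries more than 1 window away, 122 members were called at 16–18 h and 82 at 0–1.5 h among all crosses. The shares of all genes above are from the fits with those libraries.

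At 0–1.5 h the members with the widest spread moved with the antisense index. CR46473, opposite mud, a spindle orientation gene, ranged between 0.0307 CPM (CG9876 RNAi) and 19.1 CPM (CG34376 RNAi) in RNAi crosses, and between 0.0608 CPM and 11.9 CPM (control set of pb, HLH54F and Kah) in control crosses. The CG34376 RNAi value rests on replicate 1 (38.1 CPM, index 1.33%), since replicate 2 had 0.0639 CPM at an index of 0.0323%. The Spearman correlation of CR46473 with the index over 130 libraries was 0.87. CR31144 (correlation 0.85), CR45798 (0.84), CR45871 (0.82), CR45778 opposite dUTPase (0.83) and CR45818 opposite the chaperone gene Cdc37 (0.87) ranked libraries in the same way. Over all 138 members, the Spearman correlation with the index exceeded 0.5 for 41 at 0–1.5 h and for 36 at 16–18 h. With the log2 index as a covariate, 53 members were called at 0–1.5 h among all crosses and 28 among control crosses, and 109 and 64 at 16–18 h. Of all genes, 61.1% and 52.8% were then called at 0–1.5 h, and 87.8% and 74.4% at 16–18 h. Without the libraries of an index above 0.3%, 75 and 43 members were called at 0–1.5 h (all genes 62.5% and 53.6%), and 112 and 76 at 16–18 h (all genes 87.4% and 73.9%). CR45798 (adjusted p = 0.79 in edgeR's F test with the covariate), CR45871 (0.12), CR45778 (0.20) and CR46256 (0.22), opposite the Polycomb group gene Sfmbt, were then no longer called among all crosses at 0–1.5 h. All 4 remained called when the libraries with an index above 0.3% were left out instead (edgeR's F test, adjusted p = 2.8e-07, 4.4e-08, 4.8e-08 and 0.00014).

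**Figure D3:**
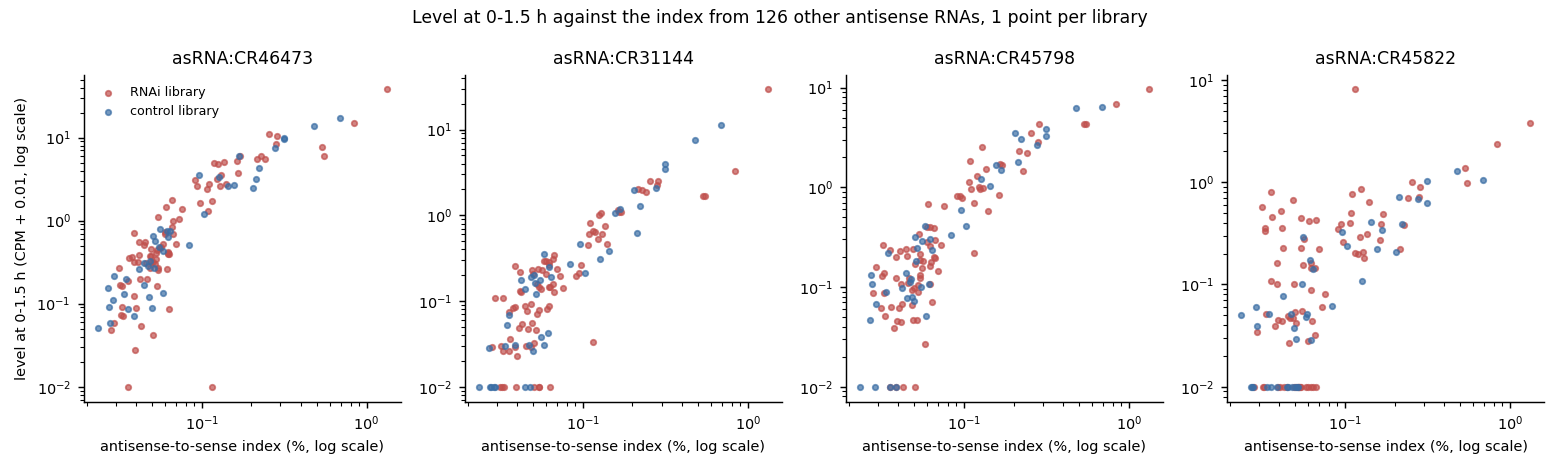
Level at 0–1.5 h (CPM + 0.01, log scale) against the antisense-to-sense index (percent, log scale) for CR46473, CR31144, CR45798 and CR45822, with 1 point per library (88 RNAi, 42 control). The first 3 rose with the index (Spearman correlation 0.87, 0.85 and 0.84), and CR45822 less closely (0.62), with its highest point in replicate 1 of Bdp1 RNAi.

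At 16–18 h some members of wide spread again moved with the index: CR45798 (Spearman correlation 0.70), CR45053 opposite SpdS (0.67) and CR31144 (0.60). Several members were present in some crosses and near 0 in others. Their correlations with the index at this age were 0.38 (CR45822), 0.46 (CR45835), 0.03 (CR44975) and 0.15 (CR46487). CR45822 (3L, 7355717 to 7356598, plus strand) lies opposite CTCF, which encodes an insulator protein. It was at 1 CPM or more in 10 of 45 RNAi crosses (cad, Sox102F, TfAP-2, Bdp1, kay, CG33557, Sox15, Pdp1, CG15696 and CG10209) and in 0 of 21 control crosses, with 4.87 CPM in CG10209 RNAi as the highest and 0.143 CPM as the highest control. In all 10 of these crosses it was also at 1 CPM or more in the middle window, and in 0 of the 35 others. At 0–1.5 h it averaged 1 CPM or more in Bdp1, CG34376, su(Hw) and CG15696 RNAi and in the control set of pb, HLH54F and Kah. The last 4 of these crosses had libraries with an index above 0.3%. In Bdp1 RNAi the level was 8.05 CPM in replicate 1, the library nearest to 6–8 h controls, and 0.345 CPM in replicate 2.

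CR45835, opposite Sec63, an ER translocation gene, begins 5041 bases beyond CR45822 on the other strand. It was at 1 CPM or more in 11 of 45 RNAi crosses at 16–18 h, the 10 above and su(Hw), and in 0 of 21 control crosses. CR44975, opposite grp (the fly Chk1 kinase gene, 2L), was at 1 CPM or more in 9 RNAi crosses and CR46487, opposite CG17684 on 2R, in 11, and each in 0 control crosses. CR44975 shared 8 of its 9 crosses with CR45822, and CR46487 shared 7 of its 11. The middle windows matched less closely than for CR45822. CR45835 was at 1 CPM or more there in all 11 of its crosses and in 2 of the 34 others. For CR44975 this held in 6 of 9 crosses and in 1 of the 36 others, and for CR46487 in 10 of 11 and in 9 of the 34 others. In 7 crosses (CG15696, CG33557, Pdp1, Sox102F, Sox15, TfAP-2 and kay) all 4 were at 1 CPM or more, and 15 of the 45 had at least 1 of them. The members of this group lie on 2L, 2R and 3L. The 2 libraries of dmrt99B RNAi differed, with 2.67 and 0.122 CPM of CR46487.

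CR43767 and CR45600 showed the reverse arrangement. CR43767 (2L, 1158576 to 1159355, minus strand, opposite Tango14) was under 1 CPM in 36 of 45 RNAi crosses and in 2 of 21 control crosses, which were the da-Gal4 and MTD-Gal4 sets. It was at 1 CPM or more in all 19 mCherry sets and in ERR, bsh, sens-2, dmrt99B, dac, esn, Sox15, CG33557 and CG10209 RNAi. In dmrt99B RNAi this held for 1 library only (5.38 and 0.386 CPM). CR45600 had a median of 16.8 CPM in RNAi and 17.9 CPM in control crosses but was under 4 CPM in 11 RNAi crosses and in the da-Gal4 control (1.57 CPM). Of those 11, E5 RNAi was the lowest at 0.534 CPM, and E5 is the TF whose control carried the da-Gal4 label. Because each hairpin came with its own paternal stock, these differences cannot be told apart from differences between stocks.

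**Figure D4:**
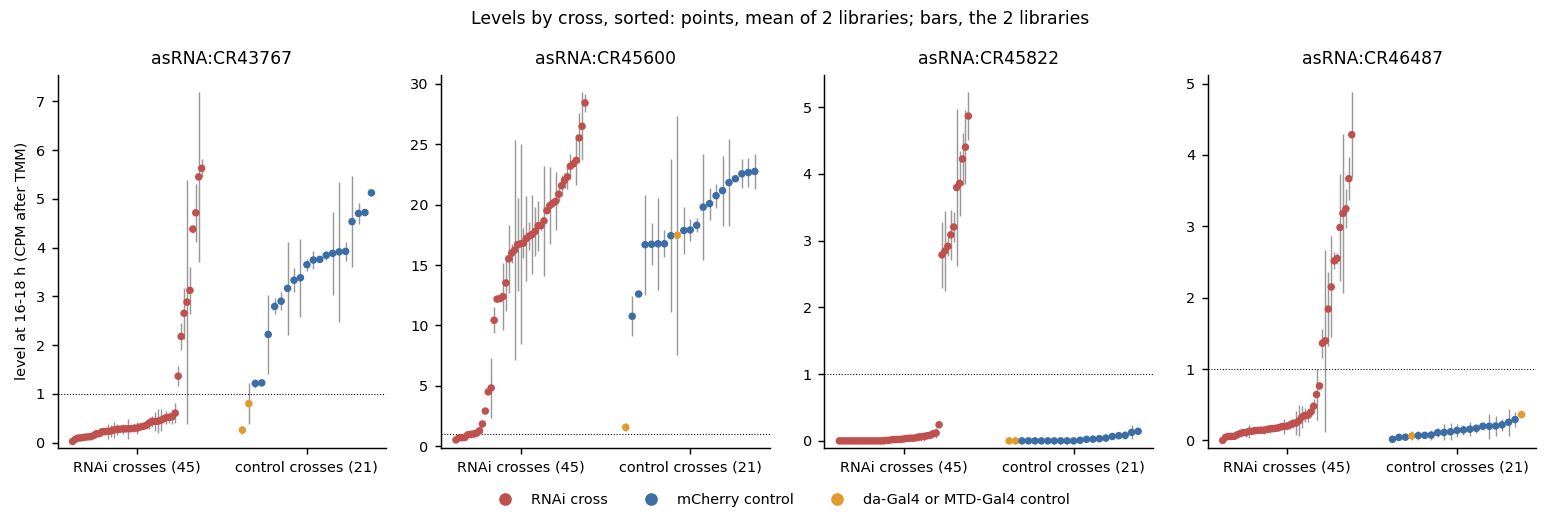
Level at 16–18 h (CPM after TMM scaling) of CR43767, CR45600, CR45822 and CR46487 in 45 RNAi crosses (left in each panel) and 21 control crosses (right), sorted; points are means of 2 libraries and bars span the 2 libraries, and the dotted line marks 1 CPM. CR45822 exceeded 1 CPM in 10 RNAi crosses and in no control cross, whereas CR43767 exceeded it in 9 RNAi crosses and in 19 control crosses.

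Each RNAi cross was then compared with its matching control in each window, usually 2 libraries against 2, and calls required an adjusted p no greater than 0.1 together with a log2 fold change of 0.5 or more in size. In 137 comparisons between 73 and 133 members (median 110) passed the filter on low counts. Over 14859 member tests, 241 were lower and 313 higher in RNAi embryos (1.62% and 2.11%), beside 1.82% lower and 2.45% higher over all gene tests. No member was called in 79 comparisons, and 5 or more were called in 25. In the simulated RNAi comparisons 2-fold changes were found less often in members than over all changed genes. A lack of calls therefore need not mean a lack of change. Several TFs share a control set, so these comparisons are not independent. Without the 3 comparisons that hold a library standing apart from its window (Bdp1 at 0–1.5 h, caup at 10–12 and 16–18 h), 196 members were lower and 237 higher (all genes 1.31% and 1.98%). In the 99 comparisons whose libraries all had an index of at most 0.3%, 143 were lower and 240 higher (all genes 2.03% and 2.42%), and in the other 38, 98 were lower and 73 higher (all genes 1.25% and 2.52%).

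At 0–1.5 h 8 members were lower and 8 higher over 45 comparisons (all genes 0.764% and 0.267%), and at 16–18 h 66 were lower and 104 higher over 45 (all genes 1.70% and 2.33%). Of the calls at 16–18 h, 13 lower and 26 higher came from caup, and without that comparison 53 were lower and 78 higher (all genes 1.31% and 1.69%). The 12 members called most often accounted for 188 of the 554 calls, and 16 members were called in none. The partner of a called member was called in the same direction in 128 cases and in the opposite direction in 45, was not called in 369 and was not tested in 12. CR42254 and BEAF-32 moved in the same direction in 10 of the 10 comparisons that called CR42254. CR45171 and Cpr67Fb moved in opposite directions in 5 of the 16 that called CR45171.

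CR45822 was called higher in 16 of the 52 comparisons in which it was tested, for 8 TFs, and never lower. A member near 0 in the controls passes the filter on low counts only through libraries in which it is high, and it can hardly be called lower. No weight is therefore given to the share called among those tested or to the direction of the calls. The same holds for CR44975 and CR46487. At 12–14 h it had 7.26 and 7.44 CPM in CG10209 RNAi and received no count in either control library, which is at least 262-fold higher against 3 counts over both control libraries. At 16–18 h it had 4.34 and 3.38 CPM in Sox15 RNAi and again no count in its controls (at least 127-fold higher). foxo RNAi, which shares that control set, was under 1 CPM. CTCF, the partner, was not called in any of the 16 comparisons, with log2 fold changes of −0.11 for CG10209 at 12–14 h and 0.21 for Sox15 at 16–18 h.

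CR44975 was called higher in 13 of 30 comparisons, CR46487 in 13 of 79 and CR45835 in 10 of 110, which also called it lower in 3. In Bdp1 RNAi at 16–18 h CR44975 had 1.06 and 1.17 CPM, with no count in either control library (at least 41.5-fold higher), and its partner grp was higher as well, by 0.88 on the log2 scale. In 3 of its 13 calls grp was called in the same direction. The 3 comparisons that called CR45835 lower (CG32006, Ets65A and Kah) had controls with a higher index than the RNAi libraries.

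CR45600 was called lower in 18 of 134 comparisons, for 11 TFs, and never higher. It had 0.660 and 0.452 CPM in CG10209 RNAi at 12–14 h, against 25.9 and 27.8 CPM in its controls, a log2 fold change of −5.47 ± 0.16 (SE, edgeR adjusted p = 2.0e-07). In Sox15 RNAi at 16–18 h it had 0.788 and 0.612 CPM, against 22.2 and 22.1 CPM in its controls. Its partner CG3984 was called in the same direction in 4 of the 18. CR43767 was called lower in 35 of 107 comparisons and higher in 1. In Pdp1 RNAi at 16–18 h it had 0.135 and 0.0656 CPM, against 3.72 and 4.13 CPM in its controls. Its partner Tango14 was called in the same direction in 4 of the 36. Without the 3 comparisons named above, CR45600 was lower in 17 and CR43767 in 33.

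Another 5 frequently called members had their highest control median at 0–1.5 h or, for CR45171, at 2–4 h. CR43257 was higher in 13 comparisons and lower in none, CR45171 higher in 13 and lower in 3, CR45126 higher in 11 and lower in 3, CR43460 (opposite rdx, an adaptor of a Cullin ubiquitin ligase) higher in 11 and lower in 1, and CR45189 (opposite the TF gene zfh1) higher in 11 and lower in 1. Without the caup and Bdp1 comparisons named above, the counts of those called higher were 11, 11, 9, 9 and 9. CR43257, CR45171 and CR45126 were each higher in at least 1 window of caup, CG33557, Kah, Bdp1, kay and Sox15 RNAi. CR45171 and CR45126 were both lower in twi RNAi at 2–4 h, where the control carried the MTD-Gal4 label.

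In single comparisons the share of members called followed the share of all genes in some and departed from it in others. caup RNAi at 10–12 h had the most members called, 32 lower and 50 higher of 131, but 49.5% of all genes were lower and 35.4% higher. In that comparison the median log2 fold change was −0.29 for the members and −1.17 for all genes, and RLE scaling moved all values by 0.60 and gave 29 members lower and 56 higher. CR43767 had 0.0194 and 0 CPM in caup RNAi at 10–12 h, against 2.88 and 2.10 CPM in its controls. CR44155, opposite the ion channel gene rpk, had 0.855 and 0.505 CPM, against 0.0254 and 0.0350 CPM. These are the caup libraries that were nearest to 2–4 h controls.

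In CG33557 RNAi at 6–8 h, 8 members were lower and 24 higher of 125, beside 11.0% and 26.3% of all genes. CR45600 had 0.128 and 0.0938 CPM in the RNAi libraries, against 7.33 and 6.86 CPM in the controls, and CR44975 had 0.383 and 1.10 CPM, against 0.0376 and 0 CPM.

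The index differed between RNAi and control libraries in all these comparisons. In caup at 10–12 h it was 0.0501% and 0.0894% in RNAi, against 0.161% and 0.189% in control libraries, and in CG33557 at 6–8 h 0.183% and 0.210%, against 0.252% and 0.267%, and in both more members were higher than lower. In CG32006 RNAi at 12–14 h, 30 members were lower and 7 higher of 130, whereas of all genes 4.73% were lower and 15.7% higher. The index was 0.104% and 0.127% in the RNAi libraries and 0.339% and 0.348% in the controls. CR31144 had 0.0464 and 0.460 CPM in CG32006 RNAi, against 4.51 and 5.36 CPM in the controls, and RpL3, the partner, had a log2 fold change of 0.18. Ets65A RNAi at 12–14 h, which shares these controls, had 11 members lower and 6 higher of 131 (all genes 0.489% and 12.0%). Its index was 0.123% and 0.133%, and CR31144 had 0.116 and 0.290 CPM there. In Kah RNAi at 8–10 h, 26 members were lower and 10 higher of 128 (all genes 7.48% and 18.6%), with an index of 0.134% and 0.168% in RNAi and 0.526% and 0.286% in control libraries. RLE scaling gave 20 lower and 11 higher there.

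In su(Hw) RNAi at 2–4 h, 17 of 124 members were called, each of them higher (edgeR), and 31 had an unadjusted p under 0.05. Of all genes 1.45% were lower and 0.614% higher. su(Hw) encodes a zinc-finger insulator protein, and its own mRNA averaged 244 CPM in RNAi and 209.8 CPM in control libraries there. The index was 0.798% and 1.24% in the RNAi libraries and 0.0833% and 0.245% in the controls, of which replicate 1 was the library nearer to 0–1.5 h. Without that control library the median log2 fold change was 1.18 for the members and 0.0082 for all genes, against 1.03 and 0.12 with it. These medians were 1.25 and 0.28 without control replicate 2, 1.28 and −0.12 without RNAi replicate 1, and 0.74 and 0.03 without RNAi replicate 2. Fewer members were called without control replicate 1 or without either RNAi library. CR45214 had 0.862 and 0.752 CPM in su(Hw) RNAi and no count in the controls (at least 44.0-fold higher). CG15696 RNAi at 2–4 h, which shares the control set, had an index of 0.861% and 0.943%. There 1 of 126 members was called, higher, and 27 had an unadjusted p under 0.05 in edgeR (all genes 0% lower and 0.0274% higher). Its members had a median log2 fold change of 0.88, against 1.03 in su(Hw) RNAi. At 0–1.5 and 16–18 h, where the index of su(Hw) RNAi was 0.550% to 1.03%, no member was called in that cross. The part of the index in the calls of these comparisons was not tested.

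**Figure D5:**
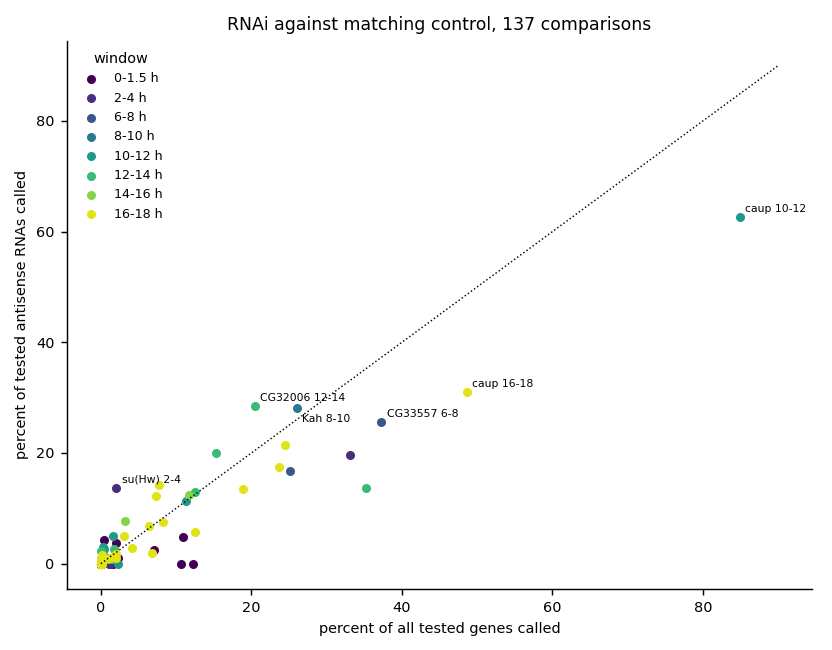
Percent of tested antisense RNAs called (y axis) against percent of all tested genes called (x axis) in 137 RNAi comparisons, coloured by window, with the line of equal shares dotted. caup at 10–12 h had 82 of 131 members called and lies below the line, whereas CG32006 at 12–14 h, Kah at 8–10 h and su(Hw) at 2–4 h lie above it.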

How the data were processed

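PolyA RNA of whole embryos was sequenced as paired ends from a strand-preserving kit. The authors deposited counts of reads per gene, which per the labels came from STAR 2.7.3a and HTSeq 0.12.4 on dm6 (Release 6), with DESeq2 1.24.0 also listed, and the paper names featureCounts as well as htseq-count, which left out reads that overlapped more than 1 gene. Whether the counting used strand, and how it was set, is not given in the sources used here. Lines naming no gene held 3.52% to 20.7% of each library and stayed out of library sizes and tests.

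CPM was computed from gene counts, and levels by group were scaled by TMM. Genes kept by filterByExpr (minimum count 10) were tested with edgeR 4.0.16 (quasi-likelihood, TMM, R 4.3.3) and Benjamini-Hochberg adjustment over all genes of a fit. DESeq2 1.42.0 was an alternative. Scripts were checked on simulated data. Of 30 members changed 2-fold, the test found 9 for Sox15 RNAi at 16–18 h and 1 for scrt RNAi at 10–12 h. Over all 100 genes changed 2-fold it found 69 and 15. Among control crosses at 16–18 h it found 6 of 30 members and 60 of 100 genes. At 16–18 h against 0–1.5 h in controls it found 25 of 30 members and 82 of 100 genes. Exons of Release 6 genes gave partners and lengths, with 37 of 17612 symbols unmatched. The groups came from the labels, which do not say whether the 2 replicates of a group are separate cultures. The p-values of RNAi and cross tests thus measure the spread between these libraries, and those of the time course between summed control sets. No replicate pair agreed within counting noise. Reads carry no molecular identifiers, so bounds from 3 counts cover counting error only.

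Members, lists and tests were chosen with earlier results of these data known. Named members were the 10 highest, the 5 largest changes in each direction per time contrast without overlap between sets, the 10 widest among crosses per window, and those called most often or most changed per RNAi comparison, each with its partner. The 12 most called are listed because of ties, and the crosses and thresholds of 1 and 4 CPM at 16–18 h were chosen after the values were seen, as were the index and the check of windows. A member that this rule names is not reported here.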

Additional observations from a re-analysis of the deposited data

Results flagged for a closer look

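In the control time course, 5 of 30 groups of values, each of 1 member over the control sets of 1 window, held a set far from the others. Chance gives about 1 in 20 for independent groups. These groups share control sets, so 5 of 30 cannot be set against that share. The set shared by zfh2, Sox102F and Hr3 at 12–14 h accounted for 3 of the 5. CR45126 had 19.3 CPM in that set (nearest other set 5.77 CPM), CR44599 had 4.60 CPM (0.585 CPM) and CR44690 had 3.51 CPM (4.95 CPM). Both libraries of this set correlated best with 10–12 h controls (r = 0.932 and 0.929, against 0.895 and 0.888 with their own window), and the part of age in these values was not tested. CR45171 had 10.5 CPM at 6–8 h in the set of Bdp1, toe and dac (nearest 5.48 CPM), with 5.62 and 15.4 CPM in its libraries. CR45185 had 3.07 CPM at 6–8 h in the set of sens, Sox14 and trh (nearest 1.70 CPM).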

How the results depend on the processing

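No fold change of a named member changed sign under the alternatives run. At 6–8 h against 2–4 h the balance of calls turned: 22 were higher and 23 lower as reported, and 26 and 22 with RLE. It also turned to more higher than lower without the MTD-Gal4 set, which leaves 1 set at 2–4 h. The 554 RNAi calls became 847 with DESeq2, 345 at an adjusted p of at most 0.05, and 629 to 825 when 1 replicate of an arm was left out, where the lone library is assumed to vary like the other arm. RLE scaling gave 543 and no filter 679. With the log2 index as a covariate, chosen after seeing the data, calls among crosses at 0–1.5 h were 53 in place of 81, and 28 in place of 50 among control crosses; the cause was not tested. Leaving out 1 control set gave 94 to 101 calls at 16–18 h against 0–1.5 h (97 with all sets), 160 to 197 between successive windows (189), and 40 to 54 (50) and 67 to 81 (78) among control crosses at 0–1.5 and 16–18 h. Each fold change of a named member was checked under several alternatives. Of these checks, 43 RNAi and 38 time ones lost the call, and 340 and 1335 kept it. Most RNAi losses came from leaving out 1 replicate, and most time checks were repeats that left out 1 control set.

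Replicate numbers gave no uniform pairing of libraries. The deviations of same-numbered RNAi and control libraries had a mean correlation of 0.015 (−0.73 to 0.82 over 134 comparisons). It was above 0.1 in 50 comparisons and below −0.1 in 44. Single comparisons may thus hold paired libraries, which the main test ignores. The replicate block gave 755 RNAi calls, 97 and 228 calls over time, 80 and 119 among all crosses and 50 and 78 among control crosses. In the comparisons with a correlation below −0.1, picked by these same values, crossed pairing gave 247 calls against 150. Promoter motifs were not run. Low levels limit most members: 1 count was worth up to 0.0761 CPM.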
